A study of Homo sapiens with 4 samples.

Results

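This account covers 32 human genes of cholesterol synthesis, of its control by the SREBP transcription factors, and of cholesterol uptake, intracellular transport, efflux and esterification, out of 58735 genes in the deposited tables. The genes were chosen by name for their known roles: 19 synthesis enzymes, 5 SREBP control genes, 5 genes of uptake and intracellular transport, and 3 of efflux and esterification. All 32 symbols were found, each with a single Ensembl gene identifier. The study sequenced poly(A)-selected RNA of H1299, an established human non-small-cell lung carcinoma line. There were 2 libraries of cells kept for 48 h with 0.5 mM methylparaben, an ester preservative of foods and cosmetics, and 2 of cells kept with ethanol as the control. The labels do not state separate cultures, and p-values then cover the spread of these 4 samples and no more, and that spread may be technical. In bulk RNA, fewer cells of a kind and less RNA per cell cannot be told apart.

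Animal cells build cholesterol from acetyl-CoA through mevalonate, farnesyl diphosphate and squalene, and they also take it up from lipoproteins. When membranes of the endoplasmic reticulum hold little sterol, the escort protein SCAP carries SREBP to the Golgi, where proteases release the part that enters the nucleus and switches on synthesis and uptake genes. When sterol is plentiful, the INSIG proteins hold SCAP and SREBP back. Excess sterol is esterified, or exported by ABC transporters whose genes respond to the LXR receptors.

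Library totals ran from 2068486 to 3760982 counts, and 0 counts in a library allow a level of up to 0.798 to 1.45 CPM (counts per 1000000 counts), taking 3 counts as the limit, for counting error only. Of the marker lists, KRT8, KRT18 and VIM had reads in every library and KRT19, EPCAM and CDH1 had 0. All 4 lung lineage markers (NKX2-1, SFTPB, SFTPC and SCGB1A1) and all 4 blood markers were at 0 in the 4 libraries, and of 4 hepatocyte markers only APOB had reads, 1 in each ethanol library. The lung label therefore could not be checked on lineage markers. A base that exactly 1 annotated transcript covers is called a counted base below. Reads were deposited only for transcripts with such bases: none of the 70749 transcripts lacking them had a read. The positions of reads within a transcript are not given. FDFT1-206 had 1 read and 17 counted bases, so a read may run past them. Statements below take each read to touch a counted base, which was not tested. Log2 CPM correlated across genes at 0.963 between the ethanol libraries, 0.957 between the methylparaben libraries and 0.816 to 0.853 between groups, and genes are not independent replicates.

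Counted bases of HMGCS1-207 and INSIG2-207 come first. HMGCS1-207 held 232 of the 772 HMGCS1 counts and INSIG2-207 held 44 of the 128 INSIG2 counts. HMGCS1-207 is a retained-intron transcript of the HMG-CoA synthase gene and INSIG2-207 a noncoding processed transcript of an SREBP anchor gene, and each had 0 counts in both ethanol libraries and reads in both methylparaben libraries. Their counted bases, in capitals with up to 10 flanking transcript bases in lower case, were taken from the GENCODE release 29 transcripts at GRCh38 positions. All 278 counted bases of HMGCS1-207 and all 173 of INSIG2-207 lie inside an intron of a protein-coding transcript of the same gene.
HMGCS1-207, chr5:43294413-43294690, minus strand: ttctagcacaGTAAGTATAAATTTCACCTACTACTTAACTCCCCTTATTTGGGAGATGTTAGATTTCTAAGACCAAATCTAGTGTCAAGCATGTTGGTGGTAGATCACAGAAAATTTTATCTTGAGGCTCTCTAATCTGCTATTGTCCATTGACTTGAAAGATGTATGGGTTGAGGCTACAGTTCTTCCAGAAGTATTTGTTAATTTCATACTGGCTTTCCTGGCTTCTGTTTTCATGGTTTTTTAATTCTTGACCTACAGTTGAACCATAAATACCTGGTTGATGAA
INSIG2-207, chr2:118102538-118102710, plus strand: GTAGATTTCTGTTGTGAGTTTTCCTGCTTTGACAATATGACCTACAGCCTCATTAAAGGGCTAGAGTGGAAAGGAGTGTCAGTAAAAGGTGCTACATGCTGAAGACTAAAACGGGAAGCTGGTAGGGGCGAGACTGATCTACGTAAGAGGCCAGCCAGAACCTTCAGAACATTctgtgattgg

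RefSeq promoter windows of 250 bases before a start site (GRCh38.p14) were found for 28 of the 32 genes, 37 windows in all, and not for ACAT2, FDFT1, SQLE and ABCG1. They were searched on both strands for TCACNCCAC, a core of the sterol regulatory element that SREBP binds, for CCAAT, the box bound by NF-Y, a usual partner of SREBP, and for GGGCGG, the GC box. CCAAT was in 22 of the 37 windows, 59.5%, against 32% of all 35116 windows in the RefSeq table and 32.7% of those of coding genes. GGGCGG was in 34 windows, 91.9%, against 42.6% of all and 53.7% of coding gene windows. TCACNCCAC was in 1 window, that of SREBF2, against 0.883% of all. The windows of 3 genes that rose and of SREBF2 are shown 5′ to 3′, up to the first base annotated to the gene in GENCODE, with sterol element and CCAAT letters in capitals. ATTGG is CCAAT on the other strand. A match is a description of letters and not of binding.
HMGCS1, chr5:43313513-43313662, minus strand: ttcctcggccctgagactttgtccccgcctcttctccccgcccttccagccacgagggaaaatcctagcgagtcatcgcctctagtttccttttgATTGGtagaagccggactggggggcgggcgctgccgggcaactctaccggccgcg
MSMO1, chr4:165327419-165327622, plus strand: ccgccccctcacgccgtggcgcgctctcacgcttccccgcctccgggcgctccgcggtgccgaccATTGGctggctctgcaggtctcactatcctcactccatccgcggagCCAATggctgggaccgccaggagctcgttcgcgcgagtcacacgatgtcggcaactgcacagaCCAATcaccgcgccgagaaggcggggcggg
INSIG1, chr7:155297628-155297775, plus strand: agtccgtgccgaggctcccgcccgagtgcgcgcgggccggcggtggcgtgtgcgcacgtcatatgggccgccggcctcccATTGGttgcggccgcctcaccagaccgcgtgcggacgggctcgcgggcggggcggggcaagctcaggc
SREBF2, chr22:41832855-41833078, plus strand: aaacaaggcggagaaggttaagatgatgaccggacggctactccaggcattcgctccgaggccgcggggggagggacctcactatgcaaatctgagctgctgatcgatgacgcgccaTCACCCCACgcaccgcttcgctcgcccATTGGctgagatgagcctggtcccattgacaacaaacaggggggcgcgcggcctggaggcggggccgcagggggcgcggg

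In their whole windows, MSMO1 has 4 CCAAT boxes, 185, 139, 76 and 34 bases before the RefSeq start, HMGCS1 has 2 in the window shown, at 155 and 100, and 0 in that of another start, and INSIG1 has 1, at 170. In the SREBF2 window the sterol element begins 133 and the CCAAT box 106 bases before the start. Of the other genes that rose and had a window, FDPS, IDI1, HSD17B7 and SC5D have CCAAT, and NPC1 and ABCA1 do not. MYLIP, STARD4 and SREBF2, which were not called, have it, and INSIG2, also not called, and VLDLR, which fell, do not. Whether CCAAT goes with the calls was not tested.

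With methylparaben 11 of the 32 genes rose and 1 fell, while 4 tested genes did not pass and 16 had too few counts to be tested. HMGCS1, HMG-CoA synthase, rose 23.6-fold, MSMO1, a methylsterol oxidase, rose 10.1-fold, and SQLE, squalene epoxidase, rose 2.21-fold. VLDLR, a lipoprotein receptor gene, fell by 1.72 ± 0.34 on the log2 scale. All 8 tested synthesis genes rose, where 18.5% of all genes tested were called higher and 18.4% lower. With RLE or library size scaling 8 rose as well, by DESeq2 6 of 8, and by limma on log2 of FPKM plus 1, 1 of 16. In the main test 1 of 3 tested SREBP control genes rose, as did 1 of 4 of uptake and transport and the only tested gene of efflux and esterification. Of the 8 synthesis genes 3 passed the low-count filter through the methylparaben libraries alone, as did INSIG1 of the SREBP control genes. Of all genes that passed in that way 68.3% were called higher. The synthesis genes FDPS and SC5D had 1 ethanol library past the filter and also needed a methylparaben library to pass. Differences between the roles were not tested.

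Calls are from the quasi-likelihood test of edgeR with a Benjamini-Hochberg adjusted p under 0.05 over 8055 genes, ± gives the SE for log2 fold changes and the SD for CPM, with n = 2 in each group. Of all genes tested, 18.5% were called higher and 18.4% lower. The median log2 fold change of the 16 tested genes was 1.51, against 0.03 over all genes tested. Neither median was split by how genes passed the low-count filter. The first includes IDI1 (2.34), MSMO1 (3.33), INSIG1 (4.33) and FDFT1 (4.49), which could pass only with methylparaben above ethanol. IDI1, FDFT1, MSMO1 and INSIG1 passed the low-count filter through the methylparaben libraries alone, and 68.3% of all genes that passed in that way were called higher. Of the other 12 tested genes 7 rose and 1 fell, where 15.4% of such genes were called higher and 19.6% lower. Among these 12, FDPS, SC5D and SREBF2 had 1 ethanol library past the filter, so they also needed a methylparaben library to pass. FDPS and SC5D are among the 7 that rose. The shares of 15.4% and 19.6% take in genes of this kind too.

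The count of higher genes was 6 of 18 without ethanol replicate 1, where 9.45% of all genes were called higher and 9.17% lower, and 6 of 18 without ethanol replicate 2 (12.2% and 10.2%). It was 10 without methylparaben replicate 1 (17.6% and 16.1%) and 10 without methylparaben replicate 2 (15% each way). By DESeq2 it was 8 (13.9% and 14.1%), with the replicate number as a block 9 (15.8% and 15.1%), and with a block of crossed numbers 12 (20.7% and 20.1%). Library size scaling gave 10 (16.6% and 20.9%), RLE scaling 11 (18.5% and 18.6%), no filter 11 (7.42% and 6.82%) and a stricter filter 11 (19.2% and 18.7%). VLDLR was the 1 gene called lower in each of these fits. Library size scaling moved the median of all genes by -0.11. Limma on log2 of FPKM plus 1 called 1 gene, HMGCS1, and 0 lower (0.463% and 0.451%), and with a pseudocount of 0.1 it called 0 of all genes.

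Of the 16 tested genes, both methylparaben libraries lay above both ethanol libraries in 14 and below in 1, where 35.5% of all genes tested lay above and 35% below. IDI1, FDFT1, MSMO1 and INSIG1 are among the 14 and passed the filter through the methylparaben libraries alone. Their order was thus set by the filter, and the shares of all genes were not split by filter.

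**Figure D1:**
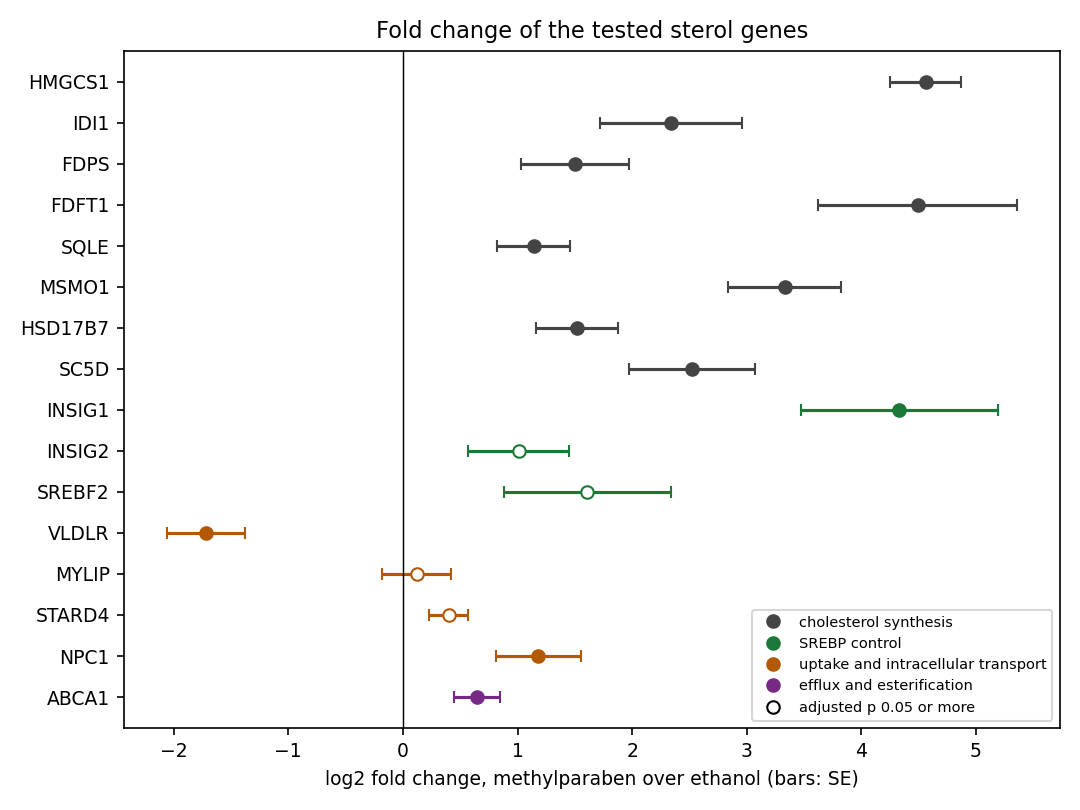
Log2 fold change (methylparaben over ethanol, horizontal axis) with its SE for the 16 tested genes, coloured by role, with filled points for adjusted p under 0.05. HMGCS1, FDFT1 and INSIG1 lie furthest right, between 4.33 and 4.56, and VLDLR is alone left of 0 at -1.72.

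In the mevalonate and isoprenoid steps, 3 of 8 genes could be tested and 3 rose. Of these 3, IDI1 passed the low-count filter through the methylparaben libraries alone, with the limit given above. HMGCS1 condenses acetyl-CoA with acetoacetyl-CoA. Its counts were 12 and 13 with ethanol against 542 and 205 with methylparaben, or 5.10 and 5.63 against 147 and 107 CPM. The groups lay far apart, at 4.56 ± 0.31 with an adjusted p of 3.01e-05. IDI1, which isomerises isopentenyl diphosphate, had 4 and 3 against 30 and 14 counts, a log2 fold change of 2.34 ± 0.62 with an adjusted p of 0.0154. The IDI1 values did not overlap between groups, but the call was lost when any of the 4 libraries was left out (adjusted p from 0.0522 to 0.148) and with DESeq2 (0.0803).

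FDPS, farnesyl diphosphate synthase, had 4.25 and 5.19 CPM with ethanol and 14.7 and 12 with methylparaben. It rose by 1.5 ± 0.47 (adjusted p = 0.0301), with an adjusted p of 0.0575 under the replicate block, 0.114 by DESeq2, and 0.144, 0.0700 and 0.150 without ethanol replicate 1, ethanol replicate 2 and methylparaben replicate 1. All of its reads lay on retained-intron transcript FDPS-212, whose 1337 counted bases all lie in introns of coding transcripts. The table holds 8 pseudogenes named after FDPS, and whether they share reads was not tested.

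The other 5 genes of these steps were under the filter. ACAT2, the cytosolic acetoacetyl-CoA thiolase, had 3 and 2 counts with ethanol, replicates 1 and 2, and 12 and 11 with methylparaben, the order used for all counts below. MVD, mevalonate diphosphate decarboxylase, had 1, 0, 10 and 14, a ratio of methylparaben over ethanol of 20 with an exact binomial 95% interval of 3.27 to 824. For both genes the methylparaben values were above the ethanol values. Mevalonate kinase MVK had 0, 0, 1 and 4 counts and phosphomevalonate kinase PMVK had 2, 3, 0 and 10, so that PMVK overlapped between groups. PMVK is annotated with 1 transcript, whose 1280 bases could all be counted. GGPS1, which makes the geranylgeranyl diphosphate used in protein prenylation, had 0 counts, and only 57 of its 3809 exonic bases belong to a single transcript.

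**Figure D2:**
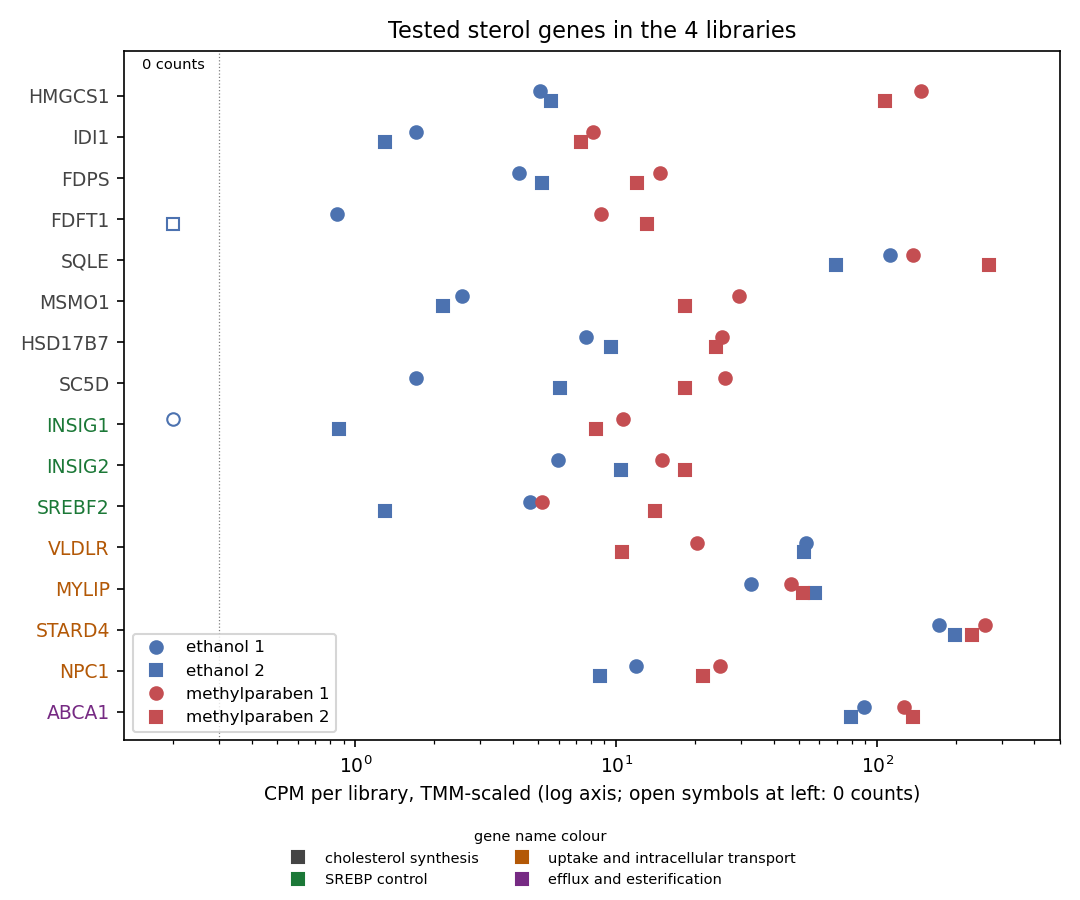
TMM-scaled CPM (log axis) of the 16 tested genes in each of the 4 libraries, with open symbols at the left for 0 counts and gene names coloured by role. For 14 genes both methylparaben libraries are above both ethanol libraries, for VLDLR both are below, and MYLIP overlaps.

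In the squalene and sterol steps, 5 of 11 genes could be tested and 5 rose. Of these 5, FDFT1 and MSMO1 passed the low-count filter through the methylparaben libraries alone, with the limit given above. FDFT1, squalene synthase, commits farnesyl diphosphate to sterols and had 2, 0, 32 and 25 counts, a ratio of 23.8 with an interval of 6.29 to 201 and an adjusted p of 0.00366. Its fitted log2 fold change was 4.49 ± 0.87 and 3.60 without ethanol replicate 2, and without ethanol replicate 1 its ethanol counts are 0. SQLE, a rate-limiting oxygenase of the pathway, had the most reads among the enzymes. Its CPM were 112 and 69.7 with ethanol and 137 and 268 with methylparaben. Methylparaben 1 lay closer to ethanol 1 than to methylparaben 2, and the increase of 1.14 ± 0.32 (adjusted p = 0.0203) missed the threshold without ethanol replicate 2 (adjusted p = 0.0631) and was 0.62 without methylparaben replicate 2 (adjusted p = 0.0393).

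MSMO1 oxidises methyl groups of sterol intermediates and had 2.55 and 2.16 against 29.4 and 18.3 CPM. Its increase was 3.33 ± 0.49 (adjusted p = 0.000958). SC5D, a sterol desaturase, had 1.70 and 6.06 against 26.1 and 18.3 CPM and rose by 2.52 ± 0.55 (adjusted p = 0.00628). That value was 1.86 without ethanol replicate 1 and 3.69 without ethanol replicate 2. HSD17B7, a ketosteroid reductase, had 7.65 and 9.52 against 25.3 and 24.1 CPM. It rose by 1.52 ± 0.36 (adjusted p = 0.00993), and the adjusted p was 0.0668 without ethanol replicate 1. With retained-intron transcripts left out the value was 2.79. The table holds 2 pseudogenes named after HSD17B7, and whether they share reads was not tested.

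The other 6 sterol enzymes had few reads. LSS, lanosterol synthase, had 0, 2, 3 and 7 counts, and its ratio of 4.17 had an interval of 0.889 to 39.2. CYP51A1, the lanosterol demethylase, had 4, 2, 4 and 1 counts. Its ratio was 0.695 with an interval of 0.168 to 2.74, and 3 pseudogenes are named after it. The isomerase EBP and the reductase TM7SF2 had 2 counts each over the 4 libraries, the terminal reductase DHCR7 had 1, and the dehydrogenase NSDHL had 4, all in ethanol 2. At this depth no difference was detectable in these 6 genes, and DHCR7 had 1536 countable bases.

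Among the SREBP control genes, INSIG1 rose, INSIG2 and SREBF2 did not pass, and SCAP and SREBF1 could not be tested. INSIG1, itself a known SREBP target, had 0, 2, 39 and 16 counts, a ratio of 22.9 with an interval of 6.06 to 194 and an adjusted p of 0.00423. Its fitted log2 fold change was 4.33 ± 0.86 and 3.38 without ethanol replicate 1, and without ethanol replicate 2 its ethanol counts are 0. INSIG2 had 5.95 and 10.4 against 15 and 18.3 CPM, without overlap, at 1.01 ± 0.44 with an adjusted p of 0.0951. SREBF2, which encodes the SREBP most tied to cholesterol genes, had 4.68 and 1.30 against 5.17 and 14.1 CPM. Its value of 1.61 ± 0.73 had an adjusted p of 0.110, and it rested on single libraries. Leaving out methylparaben replicate 1 gave 2.21 (0.0165), methylparaben replicate 2 gave 0.81 (0.586), ethanol replicate 1 gave 2.78 (0.0864) and ethanol replicate 2 gave 1 (0.378). SCAP had 1, 0, 5 and 3 counts, and the interval of its ratio of 6.68 ran from 0.895 to 296. SREBF1, which encodes the SREBP more tied to fatty acid genes, had 2, 0, 0 and 10, so that only methylparaben 2 was high.

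Genes of uptake and intracellular transport did not move together. VLDLR stood at 53.2 and 52.4 CPM with ethanol, well above the 20.4 and 10.5 with methylparaben, and fell with an adjusted p of 0.00405. Without methylparaben replicate 1 the value was -2.33. Its call held in every count-based setting tried and was lost by limma on log2 FPKM (adjusted p of 0.141 and 0.129). MYLIP, a ubiquitin ligase that marks lipoprotein receptors for degradation, had 32.7 and 57.6 against 46.5 and 51.8 CPM. The MYLIP groups overlapped, and its value was 0.12 ± 0.30 with an adjusted p of 0.789, or -0.25 without ethanol replicate 1.

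STARD4, a cytosolic sterol carrier and the gene with most reads of the 32, had 172 and 198 against 259 and 231 CPM. The groups did not overlap, and the value of 0.40 ± 0.17 had an adjusted p of 0.0944, or 0.0131 when protein-coding transcripts alone were fitted, a fit that moved the median of all genes by 0.13. NPC1, which exports cholesterol from late endosomes and lysosomes, had 11.9 and 8.66 against 25 and 21.5 CPM and rose by 1.18 ± 0.37 (adjusted p = 0.0304). The adjusted p was 0.216 with retained-intron transcripts left out, 0.191 with protein-coding transcripts alone, 0.0946 by DESeq2, and 0.0664, 0.154 and 0.0820 without ethanol replicate 1, ethanol replicate 2 and methylparaben replicate 1. NPC2, its soluble partner, had 0, 2, 3 and 2 counts.

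Of the efflux and esterification genes, ABCA1, which exports cholesterol to lipid-poor apolipoproteins, rose. Its CPM were 88.5 and 79.2 with ethanol and 127 and 137 with methylparaben, an increase of 0.65 ± 0.20 with an adjusted p of 0.0262. The groups did not overlap, but the adjusted p was 0.0664 under the replicate block, 0.0715 with library size scaling, 0.0517 with no filter, and 0.106 and 0.174 without ethanol replicates 1 and 2. ABCG1, which exports cholesterol to HDL particles, had 0 counts in all libraries although 2693 of its bases could be counted. SOAT1, which esterifies cholesterol, had 1 count, and 85 of its 7005 exonic bases could be counted.

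By transcript type, the 32 genes have 320 annotated transcripts, of which 172 have single-transcript bases and 73 had reads. Protein-coding transcripts held 76.6% of the 7659 reads, retained-intron transcripts 19.7%, noncoding processed transcripts 3.39% and transcripts annotated for nonsense-mediated decay 0.222%. All of the reads of HMGCS1, FDPS, INSIG1 and CYP51A1 lay on retained-intron transcripts, and all of those of MSMO1, VLDLR, MYLIP, STARD4 and ABCA1 on protein-coding ones. Retained-intron transcripts held 93.3% of the SC5D reads, 64.8% of the HSD17B7 reads, 42.5% of the NPC1 reads and 11.9% of the SQLE reads. Noncoding processed transcripts held all reads of ACAT2 and INSIG2 and 91.7% of those of SREBF2. The 15 retained-intron transcripts with 10 counts or more have 8459 single-transcript bases, and 100% of these lie in an intron of a coding transcript of the same gene. For HMGCS1, FDPS, INSIG1 and CYP51A1 no read was counted on a protein-coding transcript, so their values are of RNA that holds intron sequence. The counted bases of coding transcripts FDFT1-218, IDI1-202, MSMO1-203 and MSMO1-204 also all lie in an intron of another coding transcript. So do 1048 of the 1050 of SQLE-201, against 0 for STARD4-201, MYLIP-201 and ABCA1-202 and 84 of 5798 for VLDLR-203. The fit on protein-coding transcripts alone keeps such bases.

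**Figure D3:**
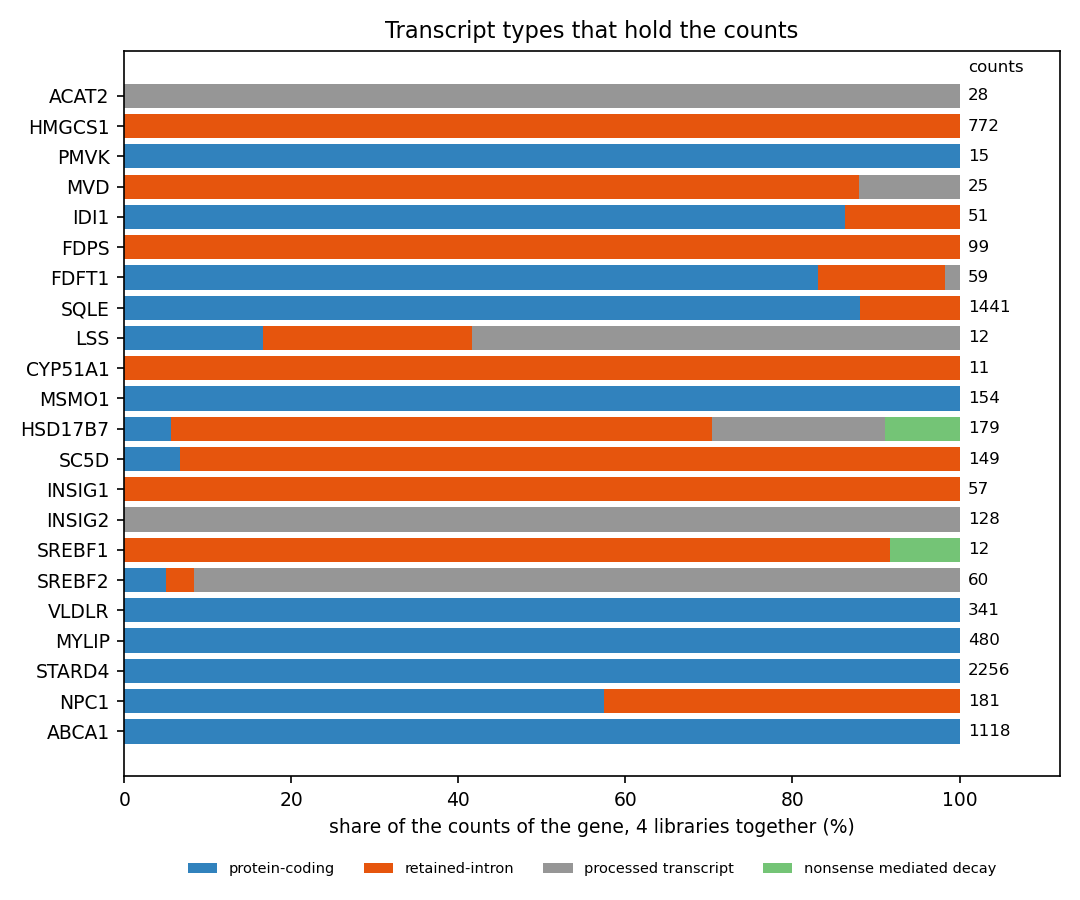
Share of each gene's counts (horizontal axis, percent, 4 libraries together) by annotated transcript type, for the 22 genes with 10 counts or more, with the number of counts at the right. The HMGCS1, FDPS and INSIG1 bars are retained-intron alone, and the VLDLR, MYLIP, STARD4 and ABCA1 bars are protein-coding alone.

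In the same edgeR test over 9167 transcripts, 12 of 21 tested transcripts of the 32 genes rose and 1 fell, where 20.3% of all were called higher and 19.1% lower. Leaving out ethanol replicate 1, ethanol replicate 2, methylparaben replicate 1 or methylparaben replicate 2, 7, 9, 10 and 10 rose (8.42%, 9.3%, 16% and 14% of all higher, 8.73%, 8.57%, 15.1% and 14.1% lower). Of the 21, 9 passed the low-count filter through the methylparaben libraries alone and supply 8 of the 12 higher calls, so that they could hardly be called lower; 72.6% of all transcripts that passed in that way were called higher and 0 lower. Of the other 12 transcripts 4 rose and 1 fell, where 14.6% of such transcripts were called higher and 21.2% lower. Among the 4, FDPS-212 and SQLE-202 had 1 ethanol library past the filter and also needed a methylparaben library to pass.

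Of the retained-intron transcripts, 8 of 10 tested rose and 0 fell, where 39.7% of all tested ones were called higher and 6.02% lower. HMGCS1-207, SQLE-204, SC5D-203, INSIG1-205 and NPC1-207 are 5 of these 8 and passed through the methylparaben libraries alone, as did SC5D-204, which was not called; 75.2% of all such retained-intron transcripts were called higher. Of the other 4, 3 rose and 0 fell, where 27% were called higher and 8.17% lower. Of these 3, FDPS-212 and SQLE-202 had 1 ethanol library past the filter and also needed a methylparaben library to pass. HMGCS1-203 had 2 ethanol libraries past it. Of 8 tested protein-coding transcripts 3 rose and 1 fell, where 14.7% of all such transcripts were called higher and 25.4% lower. Of these 3, FDFT1-218 and MSMO1-203 passed through the methylparaben libraries alone, and only ABCA1-202 had ethanol libraries past the filter. Of 3 tested noncoding processed transcripts 1 rose, where 24% were called higher and 15.2% lower. It was INSIG2-207, which also passed through the methylparaben libraries alone. Retained-intron transcripts held 4.91% and 7.30% of the reads of these genes with ethanol and 28.7% and 21.1% with methylparaben. Without HMGCS1 the shares were 3.95% and 6.28% against 15% and 11.6%. Over all transcripts the share was 2.73% in each ethanol library and 4.22% and 3.95% in the methylparaben libraries, so it moved with the treatment, and its part in the gene-level counts was not tested. With retained-intron transcripts left out, 6 of 12 tested genes rose (17.1% of all genes so fitted higher, 17.9% lower) and 1 fell, and with protein-coding transcripts alone, 6 of 9 rose (19.3% higher, 22.4% lower) and 1 fell.

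HMGCS1-203 and HMGCS1-207, with counted bases at separate places in introns of the gene, both rose. HMGCS1-203 had 12, 13, 357 and 151 counts on 302 counted bases and rose by 4.01 ± 0.31 (adjusted p = 4.31e-05). HMGCS1-207, shown above, had 0, 0, 182 and 50 counts and was at least 63.4-fold higher, taking 3 counts over the ethanol group as the floor, with an adjusted p of 0.000174. The deposited FPKM values of HMGCS1-207 were 86.2 and 44.2 in the methylparaben libraries and listed at 0 in the ethanol libraries. INSIG1-205, another retained-intron transcript, held all INSIG1 reads.

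The transcripts of INSIG2 did not move alike in value. INSIG2-207, shown above, had 0, 0, 24 and 20 counts and was at least 12-fold higher (adjusted p = 0.00226). It passed the filter through the methylparaben libraries alone, so its p is subject to the limit given above. INSIG2-206, read on 969 bases beyond the coding transcripts, had 12, 23, 30 and 15 counts, a value of 0.07 ± 0.52 with an adjusted p of 0.932. The difference between the transcripts was not tested, and the INSIG2 value above is the sum of both and of a transcript with 4 counts, all noncoding.

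SQLE-201, the coding transcript with most SQLE reads, had 106 and 61.8 CPM with ethanol and 101 and 245 with methylparaben. The groups overlapped, and its value of 1.03 ± 0.38 had an adjusted p of 0.0534. Of its 1050 counted bases, 1048 lie in an intron of another coding transcript. The retained-intron transcripts SQLE-202 and SQLE-204 rose by 2.25 ± 0.54 (adjusted p = 0.00930) and 2.02 ± 0.67 (adjusted p = 0.0357), although they held few of the reads. In NPC1 the coding transcript NPC1-201 had 13, 9, 38 and 16 counts, at 0.97 ± 0.52 with an adjusted p of 0.159, whereas the retained-intron transcript NPC1-207 had 1, 2, 35 and 14 and rose, with an adjusted p of 0.00398 and a ratio of 13.4 (interval 4.32 to 67.1). SC5D-203, a retained-intron transcript with 0, 2, 33 and 19 counts, rose with an adjusted p of 0.00396, and the coding transcript SC5D-201 had 0, 0, 7 and 3 counts and was not tested. HSD17B7-211, the retained-intron transcript with most HSD17B7 reads, had 13, 19, 53 and 22 counts, at 0.90 ± 0.46 with an adjusted p of 0.146.

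**Figure D4:**
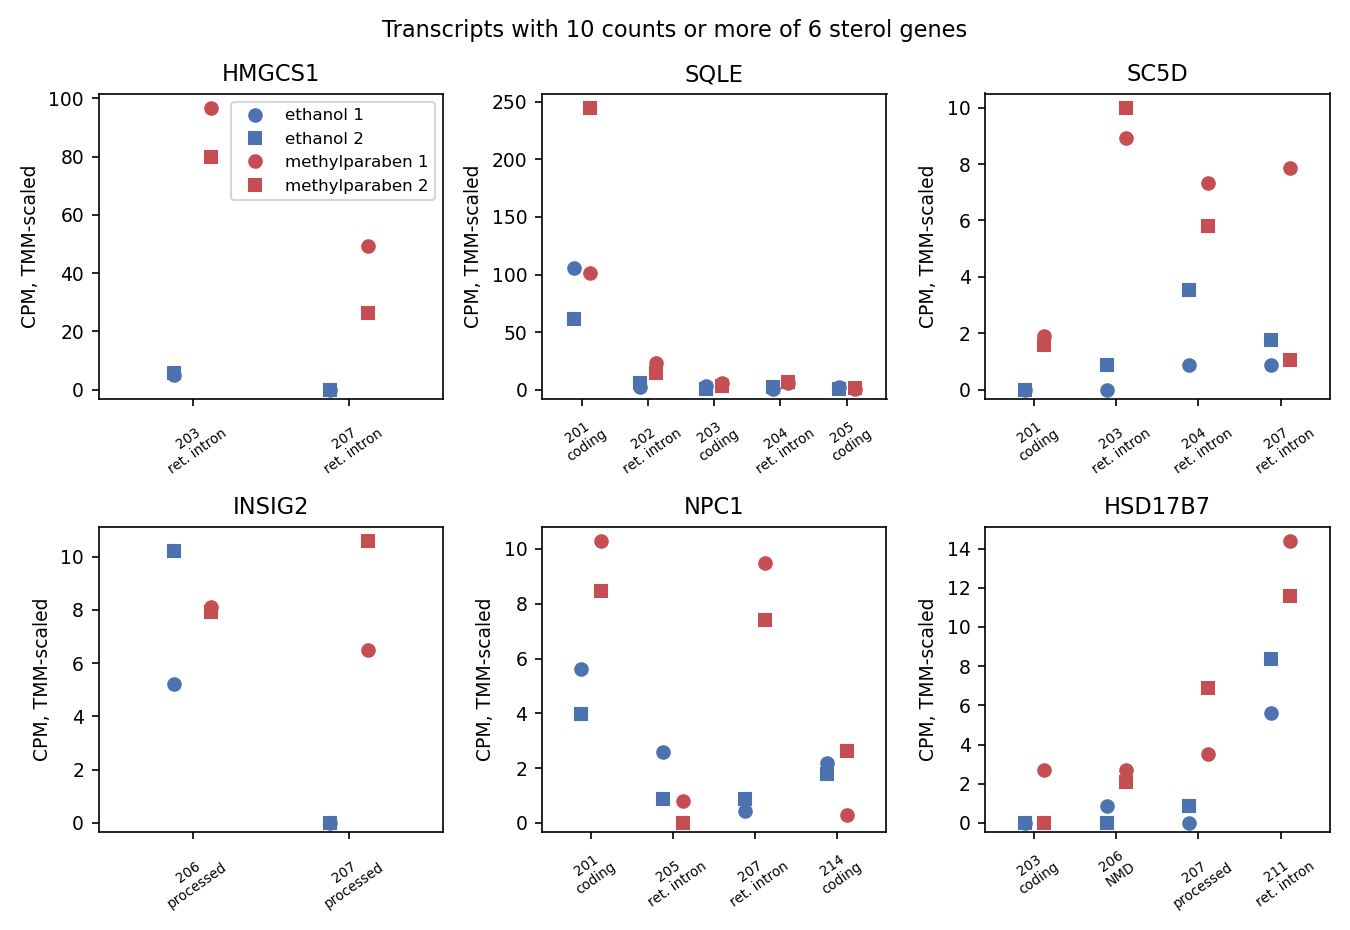
TMM-scaled CPM (vertical axes, each from 0 on its own scale) per library of the transcripts with 10 counts or more of HMGCS1, SQLE, SC5D, INSIG2, NPC1 and HSD17B7, labelled by transcript number and type. HMGCS1-207 and INSIG2-207 are at 0 in both ethanol libraries, and the SQLE-201 groups overlap.

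Among coding transcripts, those of FDFT1, MSMO1 and ABCA1 rose and that of VLDLR fell. FDFT1-218 had 2, 0, 28 and 19 counts and a ratio of 19.3 (interval 5.04 to 164, adjusted p = 0.00492). Its 375 counted bases are all in its 5′ UTR. These 375 bases all lie in an intron of another coding transcript. FDFT1-218 and MSMO1-203 passed the filter through the methylparaben libraries alone, where 72.6% of all such transcripts were called higher. MSMO1-203 had 6, 5, 95 and 32 counts and rose by 3.14 ± 0.51 (adjusted p = 0.00134), on 265 bases of which 264 are in its own 3′ UTR and all lie in an intron of another coding transcript. ABCA1-202 was counted on 8762 bases, 5348 of them coding, and VLDLR-203 on 5798, of which 5573 are 3′ UTR. IDI1-202 was counted on 83 coding bases, all in an intron of another coding transcript, and had 0, 2, 21 and 7 counts.

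Levels of transcripts were set side by side per kilobase of counted bases, and whether counts scale with these lengths was not tested. On that scale STARD4-201 stood highest in the ethanol libraries among transcripts with 15 counts or more, at 207 ± 20.7 CPM per kilobase, above SQLE-201 at 80.0 ± 29.8, and HMGCS1-203 was at 18.1 ± 1.27 and MSMO1-203 at 9.07 ± 1.04. In the methylparaben libraries HMGCS1-203 was at 292 ± 39.7, STARD4-201 at 269 ± 19.3, SQLE-201 at 165 ± 97.1 and MSMO1-203 at 80.5 ± 23.6. The HMGCS1-203 and STARD4-201 levels then differed by less than the SD of HMGCS1-203 and by more than that of STARD4-201.

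In the authors' deposited table, 16 of the 320 transcripts of these genes, from 12 genes, have an adjusted p under 0.05, as do 4471 of all 206601 transcripts (2.16%). Among transcripts with a read in the authors' deposited table, this is 16 of 73 against 11.1% of all 40279. The table gives no fold change and does not name its test. In the authors' deposited table the adjusted p was 1.88e-05 for MSMO1-203, 0.000191 for FDFT1-218, 5.93e-05 for INSIG1-205, 5.1e-06 for VLDLR-203 and 0.00526 for SQLE-201.

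Of 56 other genes of isoprenoid use, SREBP processing, sterol transport and sterol metabolism, 21 could be tested, of which 5 rose and 1 fell. PAQR3 and OSBPL2 were 2 of 4 genes that passed the filter through the methylparaben libraries alone, where 68.3% of all such genes were called higher. Of the other 17 genes 3 rose and 1 fell, where 15.4% of such genes were called higher and 19.6% lower. The median log2 fold change of all 21 was 0.29, not split by filter. OSBP, an oxysterol-binding protein that moves cholesterol from the endoplasmic reticulum to the Golgi, had 334 and 338 against 854 and 918 CPM and rose by 1.40 ± 0.16 (adjusted p = 0.000293). PAQR3, a Golgi protein reported to tether SCAP and SREBP, had 0 and 3.46 against 18.2 and 17.8 CPM (adjusted p = 0.00904, or 0.182 by DESeq2). Its value of 3.35 ± 0.78 was 2.34 without ethanol replicate 1. MBTPS1, a protease that cuts SREBP in the Golgi, rose by 0.73 ± 0.18 (adjusted p = 0.0123), with 0.0546 when retained-intron transcripts were left out and 0.0506 and 0.125 without ethanol replicates 1 and 2.

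OSBPL2, an OSBP relative, was at 2.68 ± 0.67 (adjusted p = 0.0120) and 97.7% of its counts lay on retained-intron transcripts. Its adjusted p was between 0.0748 and 0.101 when any library was left out and 0.0619 by DESeq2. PDSS2, of the ubiquinone branch and outside the naming rule, was named after its values were seen, at 0.75 ± 0.20 (adjusted p = 0.0173, or 0.151 without ethanol replicate 1). LRP8, a lipoprotein receptor gene related to VLDLR, had 134 CPM in each ethanol library against 20.7 and 19.4 with methylparaben, and fell by 2.73 ± 0.23 on the log2 scale (adjusted p = 7.54e-05). MBTPS2, the other SREBP protease gene, had a value of -0.22 ± 0.16 (adjusted p = 0.317), and SCARB1, an HDL receptor gene, 1.54 ± 0.63 (adjusted p = 0.0825, or 0.0266 without methylparaben replicate 1), both singled out after their values were seen. Of these other genes, 2 of 23 rose without ethanol replicate 1 (9.45% of all genes), 3 of 26 without ethanol replicate 2 (12.2%) and 3 of 16 with retained-intron transcripts left out (17.1%), shares near those of all genes.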

How the data were processed

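For each annotated transcript, raw read counts were deposited in 4 libraries, 2 per group, over 206601 transcripts. The authors' FPKM values follow these counts and the listed lengths. Per the file headers, the authors also give log2 of FPKM with 1 added. The authors' own p-values and adjusted p-values were used only where credited to them. GRCh38, DESeq2, limma and edgeR are listed by the submitters' processing notes, and the aligner was not given in the sources used here. Every transcript matched GENCODE release 29, from which counted bases (on either strand, in exactly 1 transcript) were derived.

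Counts were summed per gene identifier, filtered with filterByExpr (minimum count 10, minimum total 15), scaled by TMM and tested two-sided with edgeR 4.0.16 (R 4.3.3) at a threshold of 0.05, and transcripts likewise. SE is the size of the log2 fold change divided by the root of F, and CPM use TMM library sizes. The gene fit was also run on simulated data with the same fixed dispersion for every gene. That dispersion was not estimated from these libraries, so recovery in them may differ. The fit recovered 20 of 67 genes changed 2-fold, 65 of 67 changed 4-fold and 66 of 66 changed 8-fold. This was over 7903 genes, with 4 false calls. Recovery was not split by count, so it is no measure for genes with few counts, such as FDFT1 and INSIG1. Count ratios have exact binomial 95% intervals. Library totals, in the order ethanol 1 and 2, methylparaben 1 and 2, were 2368658, 2182058, 3760982 and 2068486.

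Alternatives were RLE or library size scaling, DESeq2 1.42.0, no filter or at least 5 CPM in 2 libraries, a block for the replicate number, sums leaving out retained-intron transcripts or over protein-coding ones, limma 3.58.1 on log2 FPKM (pseudocounts 1 and 0.1), and each library left out, when a lone library is assumed to vary like the other group. All 32 genes are named, with up to 4 called genes in each direction of 56 others. Genes and lists were chosen with earlier results of these data known.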

Additional observations from a re-analysis of the deposited data

How the results depend on the processing

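Depth and the counting of single-transcript bases limit these results, since 16 of the 32 genes were not tested. Over 320 refitted fold changes of the tested genes named in the text, 0 changed sign where a value was called, 250 kept their side of the threshold, 67 lost it and 3 gained it. RLE scaling and the stricter filter kept every count of calls within 1.5 times. On log2 FPKM, limma called 1 of 27 genes higher with a pseudocount of 1 (HMGCS1, the 1 synthesis gene called) and 0 with 0.1, against 11 in the main test, and 0 lower; for transcripts it called 0 higher and 0 lower, and for the other sterol genes 1 higher with a pseudocount of 1, 0 with 0.1, and 0 lower. In those fits SREBP control, uptake and transport, and efflux and esterification genes had 0 calls; over all genes limma called 80 higher and 78 lower with a pseudocount of 1.

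Leaving out retained-intron transcripts gave 6 genes higher, of which 5 were synthesis genes, 0 SREBP control, 0 uptake and transport, and 3 other sterol genes. Protein-coding transcripts alone gave 6 higher, of which 4 were synthesis genes, and 3 other sterol genes, and fewer genes were tested. DESeq2 called 8 of the 32 genes higher, 0 of them of uptake and transport, and 1 lower, and 3 other sterol genes higher. ABCA1 was not called with library size scaling, no filter or the replicate block, giving 0 efflux and esterification genes, and library size scaling called 2 other sterol genes lower. With each library left out in turn, 6 to 10 genes rose and 1 fell, with 5 to 7 synthesis, 1 to 2 SREBP control, 0 to 1 uptake and transport and 0 to 1 efflux and esterification genes higher. Other sterol genes then had 2 to 6 higher and 1 to 2 lower, and transcripts 7 to 10 higher. The cause of these changes was not tested where no fewer genes or libraries entered.

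With the replicate block 9 genes rose and 1 fell, and 9 transcripts rose. The deviations of same-numbered libraries correlated at -0.15 across 8055 genes, and the labels give the numbers no pairing. A crossed block, chosen after seeing this, gave 12 genes higher and 1 lower, 2 SREBP control genes higher and 2 other sterol genes lower.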
